A study of Homo sapiens with 6 samples.

Results

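Aminoacyl-tRNA synthetases were followed in HepG2 cells given atractylon, as 39 genes chosen by name. They were 20 cytosolic enzymes, 16 mitochondrial enzymes and 3 non-enzyme factors of the multi-synthetase complex. All 39 had transcripts in the deposited table, among 33791 genes with a matched transcript, and 38 of them were among the 12302 genes tested. The family was picked because an earlier reading of the same data placed LARS, the cytosolic leucyl enzyme, among the genes with the smallest p between the groups. The difference between groups in LARS is therefore given as a description, and its SE and interval, where shown, describe the spread of the libraries and test nothing. GENCODE 29 symbols are used, so that AARS, LARS and the other cytosolic names stand for the genes now called AARS1, LARS1 and so on.

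An aminoacyl-tRNA synthetase joins one amino acid to the tRNAs that read its codons, and so supplies the charged tRNA that ribosomes use. Most amino acids have a separate enzyme for the cytosol and for the mitochondrion, both encoded in the nucleus. GARS and KARS each serve both compartments, EPRS carries the glutamyl and the prolyl enzyme in one chain, and phenylalanine is served in the cytosol by the 2 subunits FARSA and FARSB. Several cytosolic enzymes of vertebrates sit in a multi-synthetase complex held together by the factors AIMP1, AIMP2 and EEF1E1. The enzymes fall into classes I and II by the fold of their catalytic domain. In human cells many cytosolic synthetase genes are targets of ATF4, the transcription factor of the amino acid response, and LARS has also been described as a leucine sensor upstream of mTORC1.

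The series held 6 RNA sequencing libraries of HepG2, a human liver cancer line. Cells of 3 libraries had been given 20 µM atractylon, a sesquiterpenoid of Atractylodes rhizomes, and 3 libraries came from untreated cells, so no vehicle is named for the controls. Both groups were the same line in serum-supplemented DMEM, with no genetic change named in the labels. The labels do not state the duration of treatment and do not say that replicates were separate cultures, so the spread between replicates may be technical. Total expected counts, which are estimated reads per transcript, ran from 5859575 to 8832092 per library. Of 10 hepatocyte markers 10 were detected, with mean FPKM (fragments scaled to transcript length and library size) from 94.7 for TTR to 5469 for APOA1. Of markers of other cell types, 0 of 4 fibroblast, 2 of 4 blood and immune (CD14 and CD68) and 2 of 3 endothelial markers (PECAM1 and VWF) passed the filter on low values, which asked for 0.5 FPKM or more in 3 or more libraries. CD14 and CD68 were at mean FPKM of 8.00 and 18.0, PECAM1 and VWF at 0.812 and 1.33.

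No member passed the test between the groups. With the quasi-likelihood test of edgeR, adjusted after Benjamini and Hochberg over every gene tested, 0 of 38 members had an adjusted p under 0.05, and 0 of the 12302 genes (0.0%) were called. DESeq2 and limma also called 0 members. At an unadjusted p below 0.05 stood LARS, which had been chosen for it, and 0 of the 37 other tested members, beside 1.59% of all genes in either direction and 0.805% with lower values. DESeq2 and limma likewise had 0 of those 37 at that level, beside 0.829% and 3.26% of all genes. The CPM values (counts scaled to the effective library size) of the 2 groups did not overlap in LARS, again as chosen, and in 1 of the other 37 (2.70%), FARSB, both lower with atractylon. Over all genes that share was 5.72% in either direction, 2.71% higher and 3.02% lower, so the share of the other members is near or under the background.

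**Figure D1:**
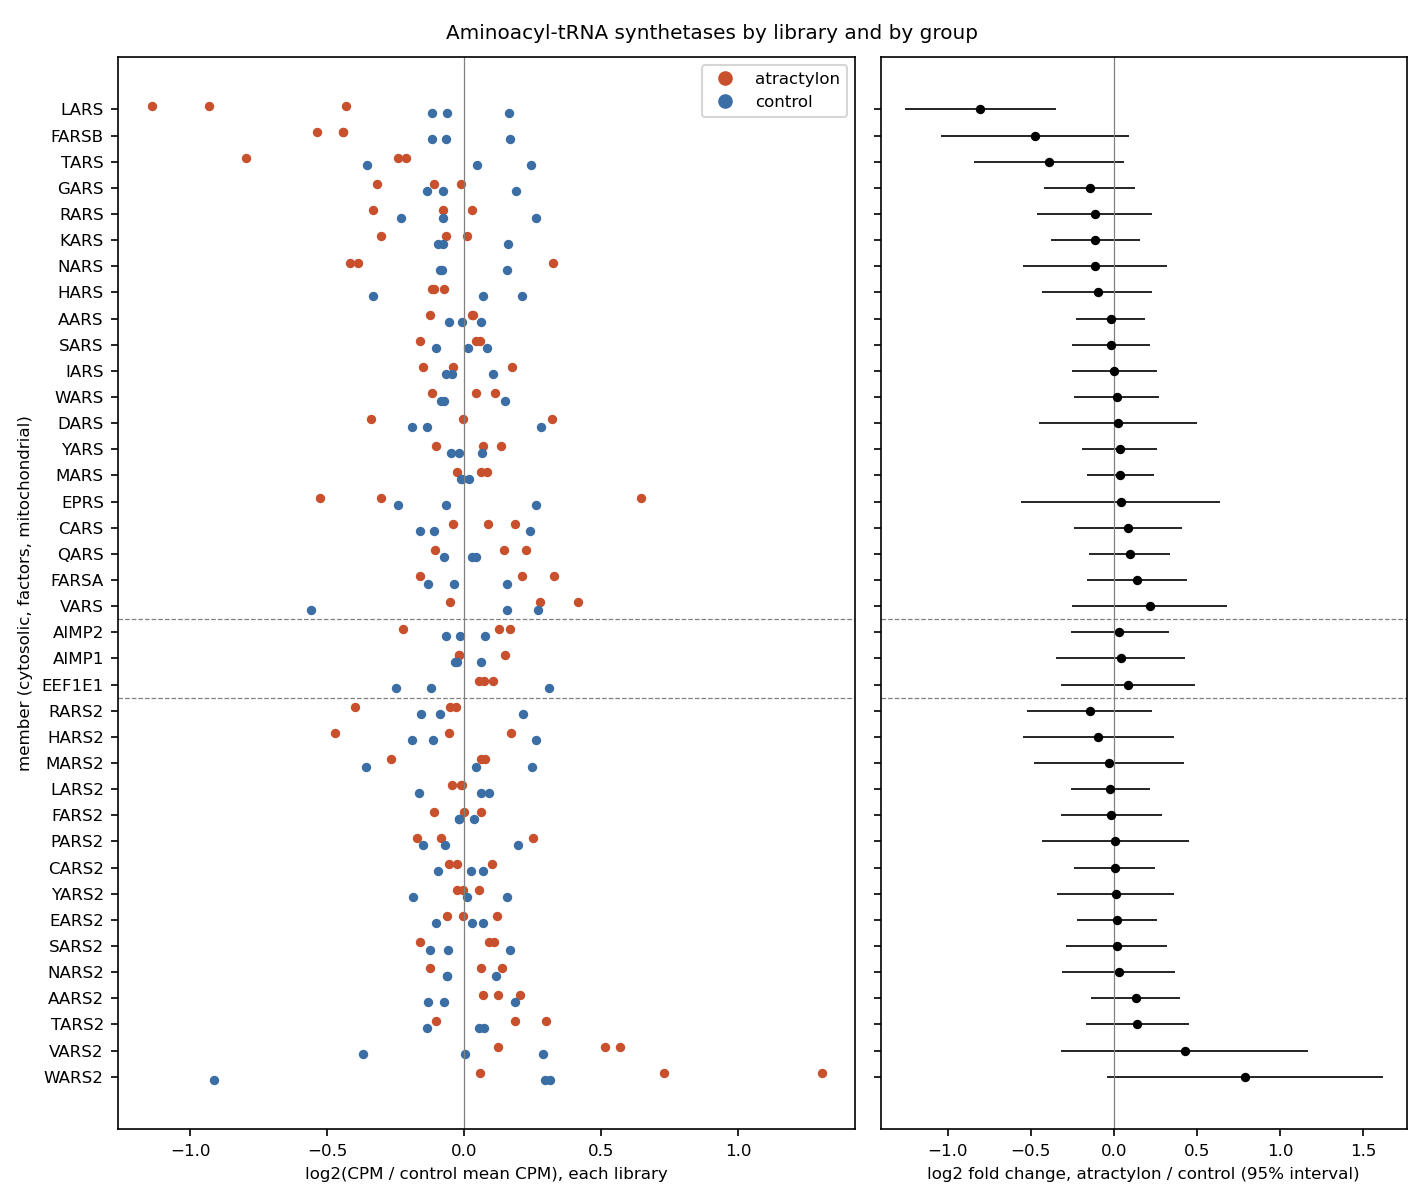
The left panel plots each library's CPM as log2 of its ratio to the mean of the 3 control libraries (x axis), with 1 row for each of the 38 tested members, ordered by fold change within cytosolic enzymes, complex factors and mitochondrial enzymes (dashed lines). The right panel plots the edgeR log2 fold change of atractylon over control with its 95% interval; LARS stands at -0.80 at the top and WARS2 at 0.79 at the bottom.

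LARS, on the minus strand of chromosome 5, was lower in the 3 atractylon libraries than in each control library. Its CPM was 15.2, 21.5 and 13.2 with atractylon, replicates 1 to 3 in order as in all such lists here, and 26.8, 32.5 and 27.8 in the untreated libraries. The groups did not overlap, and the highest atractylon library stood at 21.5 against 26.8 in the lowest control library. The means were 16.7 ± 4.36 and 29.1 ± 3.07 CPM (SD, n = 3 each), a ratio of 0.573. The edgeR log2 fold change was -0.80 ± 0.20 (SE), a size that the choice of the gene on these values favours. On the FPKM scale, which takes out transcript length, LARS was at 7.21, 6.75 and 4.04 against 7.85, 10.6 and 9.34. The order of groups was the same there, with a gap between 7.21 and 7.85 that is narrower than on the CPM scale. Of these sums over transcripts, the non-coding ones held 4.63, 2.64 and 1.35 FPKM with atractylon against 1.91, 3.67 and 3.10. The coding ones held 2.58, 4.11 and 2.69 FPKM against 5.94, 6.98 and 6.24. In bulk RNA, fewer cells with LARS RNA and less LARS RNA per cell cannot be told apart.

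The difference was next read along the gene's transcripts, of which the table listed 15 and gave counts to 11. At the front of the coding sequence LARS-202 and LARS-212 differ in exon 2. Exons 2 and 3 of LARS-202 are therefore printed here, from GENCODE 29 on GRCh38, minus strand. LARS-202, at 4766 bases and 32 exons, holds both. LARS-212, at 3737 bases and 31 exons, leaves out exon 2 and has its annotated start codon in exon 3, marked by capitals in a stretch that begins inside that exon. Exon 2 has only 119 bases, so LARS-202 and LARS-212 also differ elsewhere, and their counts do not read exon 2 alone.
LARS exon 2, chr5:146177547-146177665: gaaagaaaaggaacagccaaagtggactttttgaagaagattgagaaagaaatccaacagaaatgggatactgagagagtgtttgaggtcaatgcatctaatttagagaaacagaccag
LARS exon 3 from within, chr5:146172687-146172749: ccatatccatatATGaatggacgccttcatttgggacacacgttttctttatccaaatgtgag

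Both of these coding transcripts had lower mean counts with atractylon, and neither separated the groups alone. LARS-202, with exon 2, had 26.4, 40.6 and 29 expected counts in the atractylon libraries and 40.7, 66.0 and 48.3 in the control libraries. Its highest atractylon library and its lowest control library were nearly level in counts, and the groups overlapped in CPM (log2 fold change -0.74 ± 0.39, SE). LARS-212, without exon 2, had 52.0, 75.7 and 32.7 counts against 35.7, 126 and 133. Control replicate 1 stood among the atractylon libraries for this transcript (log2 fold change -0.86 ± 0.48, SE). In the same library LARS-201, another coding transcript, was assigned 54.4 counts, beside 0.02 and 21.4 in control replicates 2 and 3. The atractylon libraries had 0, 0 and 14.1 counts of LARS-201. Its length was 3769 bases in the table and 2213 in GENCODE 29, so its structure is not described here.

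Summed, the coding transcripts separated the groups, which none of them did alone. Their summed CPM was 10.3, 17.6 and 11.6 with atractylon and 23.8, 29.1 and 25.3 in control libraries. The non-coding LARS transcripts did not share that order, at 4.76, 3.91 and 1.67 CPM against 2.54, 3.64 and 2.63. They held 31.6%, 18.4% and 12.9% of LARS counts in the atractylon libraries and 10.4%, 11.3% and 9.79% in the control libraries. Each atractylon library thus had a larger non-coding share than each control library, and the smaller coding total enters this share. In the atractylon libraries most of the non-coding counts belonged to LARS-207, a transcript with a retained intron, at 22.2, 15.8 and 9.24 counts against 11.4, 8.90 and 7.45 (log2 fold change 0.66 ± 0.63, SE). Of the 5 LARS transcripts tested 0 passed, and among all 39882 transcripts tested 0 (0.0%) were called.

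**Figure D2:**
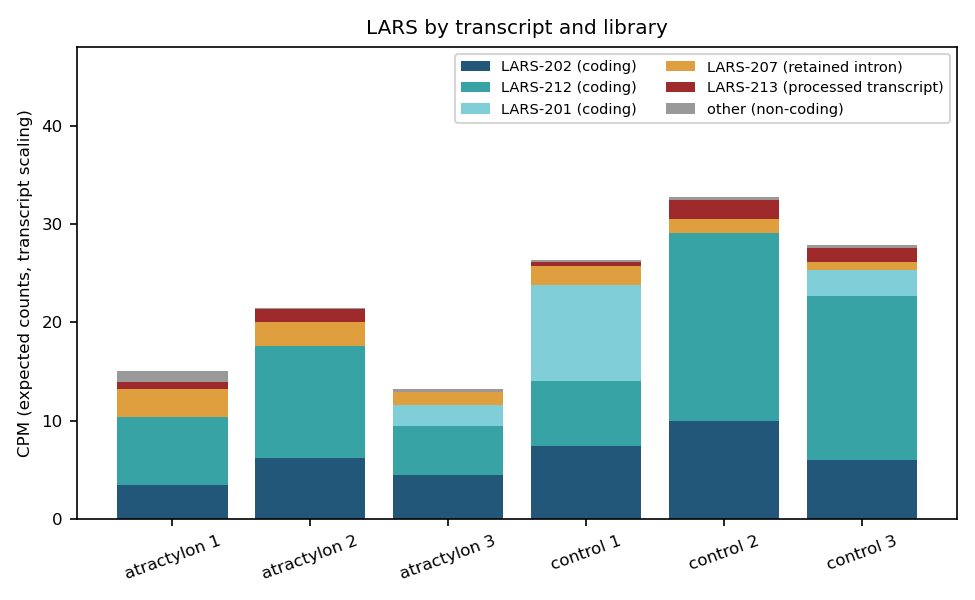
Stacked bars show the CPM of LARS transcripts (y axis, expected counts on the effective library size of the transcript fit) in each of the 6 libraries, coloured by transcript and transcript type. The coding part stands between 10.3 and 17.6 CPM with atractylon and between 23.8 and 29.1 CPM in control libraries, while LARS-201 appears mainly in control replicate 1.

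LARS2, the mitochondrial leucyl enzyme, overlapped between the groups. It was at 103, 101 and 103 CPM with atractylon and at 92.7, 108 and 111 CPM in control libraries. The atractylon values lay inside the control range (log2 fold change -0.02 ± 0.11, SE, 95% interval -0.26 to 0.22). On the FPKM scale LARS2 exceeded LARS in every library, and the ratio of LARS to LARS2 was 0.291, 0.254 and 0.170 with atractylon against 0.361, 0.392 and 0.364. The groups do not overlap in this ratio, which follows from the LARS values that led to its choice.

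Among the other enzymes of the multi-synthetase complex, none separated the groups. QARS, the glutaminyl enzyme, was the most abundant member, with 534, 616 and 638 FPKM in atractylon and 621, 615 and 605 FPKM in control libraries. Its CPM was 464, 584 and 552 against 515, 510 and 475, and the groups overlapped (log2 fold change 0.09 ± 0.11, SE, and -0.05 by limma on log2(FPKM + 0.1)). QARS alone held 35.2% to 38.6% of the summed FPKM of the cytosolic enzymes. FPKM was summed over transcripts, where short ones weigh more than in CPM. In CPM QARS stood closer to AARS, at means of 534 with atractylon and 500 in control libraries, against 469.5 and 476. Of the 8 complex enzymes (EPRS, MARS, QARS, RARS, KARS, DARS, IARS and LARS), 5 had a positive and 3 a negative log2 fold change, with a median of 0.012, equal to the median of all genes tested. Without atractylon replicate 1 that median was -0.125. Apart from LARS their log2 fold changes ran from -0.12 in RARS to 0.09 in QARS. The methionyl enzyme MARS was the closest between libraries, from 237 to 256 CPM over all 6. After LARS, EPRS was spread most, at 68.3, 35.4 and 30.3 CPM with atractylon against 52.3, 36.9 and 41.7, and its log2 fold change went from 0.04 to -0.41 without atractylon replicate 1.

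The other complex enzymes overlapped between the groups. The isoleucyl enzyme IARS ran from 125 to 157 CPM and was highest in atractylon replicate 1 (log2 fold change 0.00 ± 0.12, SE). The lysyl enzyme KARS, which also serves mitochondria, ran from 103 to 142 CPM (-0.11 ± 0.12), and the arginyl enzyme RARS from 47.4 to 71.8 CPM (-0.12 ± 0.16). Both were highest in control replicate 1. The aspartyl enzyme DARS was at 24.9, 19.9 and 15.8 CPM with atractylon against 24.2, 17.5 and 18.2 (0.02 ± 0.22). In DARS replicate 1 was the highest library of either group, as it was for EPRS.

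The scaffold factors of the complex differed little between the groups. AIMP2, which links enzymes of the complex, was at 54.3, 71.2 and 69.2 CPM with atractylon and at 60.6, 66.9 and 62.8 CPM in control libraries (log2 fold change 0.03 ± 0.13, SE). EEF1E1, also called AIMP3, was at 24.4, 23.5 and 23.8 CPM against 28.1, 20.8 and 19.0 (0.08 ± 0.18). AIMP1, whose released product is known as the cytokine EMAP II, was at 16.0, 14.3 and 14.2 CPM against 15.1, 14.2 and 14.1 (0.04 ± 0.18). In each of the 3 the groups overlapped, and the atractylon libraries of EEF1E1 lay closer together than its control libraries. EEF1E1 shares its strand with the readthrough gene EEF1E1-BLOC1S5, so reads could be divided between them.

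The 12 cytosolic enzymes outside the complex had 5 positive and 7 negative log2 fold changes, with a median of -0.018, which was 0.040 without atractylon replicate 1. Phenylalanyl-tRNA synthetase is built from equal numbers of its subunits, and their RNAs stood far apart here. FARSA, the alpha subunit, had a mean of 168 FPKM, and FARSB, the beta subunit, a mean of 1.46 FPKM, the lowest of the tested members. FARSA was at 242, 340 and 314 CPM with atractylon and at 247, 302 and 264 CPM in control libraries, which overlapped (log2 fold change 0.14 ± 0.14, SE). FARSB was at 3.97, 4.25 and 4.24 CPM with atractylon and at 5.50, 6.48 and 5.32 CPM in control libraries. The groups did not overlap, on 27.8 to 30.3 counts in atractylon and 30.3 to 43.3 in control libraries, and the 95% interval ran from -1.04 to 0.09 (log2 fold change -0.47 ± 0.26, SE, and -0.30 by limma on log2(FPKM + 1)). The table listed 1 transcript of FARSB, yet its counts were not whole numbers, such as 30.34 in atractylon replicate 1. Whether its low level and its lack of overlap rest on how reads were assigned was not tested.

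AARS, the alanyl enzyme, was at 436, 487 and 485 CPM with atractylon and at 458, 474 and 496 CPM in control libraries (log2 fold change -0.02 ± 0.10, SE). The values of AARS crossed between groups, with an interval from -0.23 to 0.19. TARS, the threonyl enzyme, was at 30.4, 20.3 and 29.8 CPM with atractylon and at 41.8, 27.6 and 36.5 CPM in control libraries. Control replicate 2 of TARS lay within the atractylon range (log2 fold change -0.39 ± 0.21, SE, 95% interval -0.84 to 0.06). On log2(FPKM + 0.5) limma gave -0.21 for TARS. The remaining free enzymes, CARS, GARS, HARS, NARS, SARS, WARS, YARS and VARS, overlapped in every case and had log2 fold changes from -0.14 in GARS to 0.22 in VARS. The glycyl enzyme GARS, of both compartments, was at 124, 107 and 132 CPM with atractylon against 122, 127 and 152. The asparaginyl enzyme NARS was at 67.5, 40.4 and 41.2 CPM against 60.0, 50.9 and 50.7, with atractylon replicate 1 above every control library and replicates 2 and 3 below them. Without atractylon replicate 1 the log2 fold change of NARS was -0.40, beside -0.11 with all libraries. The tryptophanyl enzyme WARS ran from 104 to 125 CPM, the seryl enzyme SARS from 123 to 146 CPM, the tyrosyl enzyme YARS from 195 to 230 CPM and the cysteinyl enzyme CARS from 41.4 to 54.7 CPM. By fold class, 7 of 9 class I enzymes had a positive log2 fold change (median 0.037) and 8 of 10 class II enzymes a negative one (median -0.105). EPRS, with a domain of each class, was counted in neither. The class I median was negative by limma (-0.047 on log2(FPKM + 0.5)), and the class II median was -0.001 without replicate 1 of both groups. Over all genes tested 6553 were positive and 5749 negative, with a median of 0.012.

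VARS, the valyl enzyme, needs a caution about where its counts lie. On its primary-assembly gene it was at 39.1, 54.0 and 49.1 CPM with atractylon and at 27.5, 45.2 and 48.8 CPM in control libraries (log2 fold change 0.22 ± 0.21, SE), and without control replicate 1 the value was 0.01. The gene lies in the major histocompatibility region of chromosome 6, which has alternate reference sequences. The table held 72 further transcripts on such sequences that carry the VARS symbol, 56 of them with counts. The primary gene held only 6.91% to 10.7% of all VARS counts. With the copies added, VARS had 3245, 3334 and 3436 counts in the atractylon libraries and 2174, 2977 and 3932 in the control libraries. Its log2 fold change was then 0.12 ± 0.12 (SE), and its level on the primary gene covers that part of the counts alone.

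The mitochondrial enzymes had 10 positive and 5 negative log2 fold changes among 15 tested, with a median of 0.010 and 0 without overlap between the groups. EARS2, the glutamyl enzyme, had the highest FPKM summed over transcripts, at a mean of 53.7. It was at 92.1, 95.9 and 105 CPM with atractylon and at 89.7, 101 and 98.1 CPM in control libraries (log2 fold change 0.02 ± 0.11, SE). Its main coding transcript EARS2-201 held 73.1% to 85.4% of its counts but was at 17.0 to 21.6 FPKM, so short transcripts weigh heavily in that mean. CARS2, the cysteinyl enzyme, was at 79.96, 87.4 and 78.3 CPM against 82.8, 85.4 and 76.1 (0.01 ± 0.11). Its main coding transcript CARS2-201 was at 34.35 to 41.11 FPKM, above EARS2-201. SARS2, the seryl enzyme, was at 45.1, 53.7 and 54.4 CPM against 48.5, 56.6 and 46.2 (0.02 ± 0.14). In these 3 the library order was mixed between the groups. SARS2 overlaps MRPS12 on the opposite strand and the gene AC011455.2 on the same strand, so reads could be divided between them. The use of strand in counting is not given in the sources used here.

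The 2 mitochondrial members with the largest log2 fold changes were also among those with the fewest counts. WARS2, the tryptophanyl enzyme, was at 14.03, 9.41 and 5.91 CPM with atractylon and at 6.97, 3.01 and 7.05 CPM in control libraries, on 19.5 to 106 counts. Atractylon replicate 3 lay inside the control range, and the 95% interval ran from -0.04 to 1.62 (log2 fold change 0.79 ± 0.38, SE). Without atractylon replicate 1 the value of WARS2 was 0.43, and by limma on log2(FPKM + 0.5) it was 0.52. VARS2, the mitochondrial valyl enzyme, was at 2.78, 3.64 and 3.79 CPM with atractylon and at 3.12, 2.56 and 1.98 CPM in control libraries (log2 fold change 0.43 ± 0.34, SE). Its counts lay almost wholly on VARS2-203, a transcript of 1103 bases with 20.6, 23.9 and 25.4 counts against 16.6, 15.4 and 15.6, while VARS2-201, at 4073 bases, was listed at 0 in all 6 libraries. The gene GTF2H4 overlaps VARS2 on the same strand, so reads could be divided between them.

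IARS2, the mitochondrial isoleucyl enzyme, was the member that was not tested. Its transcript IARS2-201 had 220 counts in atractylon replicate 1, at 8.26 FPKM, and was listed at 0 in the other 5 libraries. No fold is given, since an exact 0 of an estimated count can be a failed estimate. The other 10 mitochondrial enzymes (AARS2, FARS2, HARS2, LARS2, MARS2, NARS2, PARS2, RARS2, TARS2 and YARS2) overlapped between groups in every case, with log2 fold changes from -0.15 in RARS2 to 0.14 in TARS2. The arginyl enzyme RARS2 was at 31.1, 30.6 and 24.1 CPM with atractylon against 36.9, 28.5 and 29.9, and the threonyl enzyme TARS2 at 49.1, 59.9 and 64.8 CPM against 54.7, 55.4 and 47.96. The alanyl enzyme AARS2 was at 76.8, 81.2 and 73.9 CPM against 64.2, 66.9 and 80.1, with control replicate 3 inside the atractylon range. The phenylalanyl enzyme FARS2, which works as a single chain, was the closest of the class between libraries, from 29.8 to 33.5 CPM. HARS2, the mitochondrial histidyl enzyme, starts head to head with HARS, and only 84 bases separate the RefSeq starts. They are printed on the plus strand of GRCh38.p14, chr5:140691371-140691454, to show how near the promoters of the pair lie.
between HARS and HARS2: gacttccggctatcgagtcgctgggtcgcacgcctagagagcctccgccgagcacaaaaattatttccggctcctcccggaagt
HARS was at 43.4 to 63.1 CPM and HARS2 at 17.9 to 29.7 CPM over the 6 libraries, and neither separated the groups. In GENCODE 29, by which counts were summed, the pair overlaps on opposite strands, and HARS2 also overlaps ZMAT2 on the same strand. Reads could thus be divided between these genes.

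The balance between compartments was compared per length. Summed over 20 enzymes, the cytosolic class was at 1515, 1620 and 1652 FPKM with atractylon and at 1646, 1640 and 1627 FPKM in control libraries. The mitochondrial class was at 329, 325 and 314 FPKM against 307, 326 and 304. The 329 of atractylon replicate 1 includes 8.26 FPKM of the untested IARS2, which was listed at 0 in every other library. The cytosolic sums hold VARS on its primary gene alone, and both points enter the ratio. The ratio of the sums was 4.60, 4.99 and 5.26 with atractylon and 5.36, 5.04 and 5.36 in control libraries. Atractylon replicate 1 had the lowest ratio and replicate 3 overlapped the control range. QARS alone weighs heavily in these sums, and short transcripts can do so too, so the medians of the classes were set beside them. The median log2 deviation from the control mean, cytosolic minus mitochondrial, was -0.097, -0.070 and -0.097 in the atractylon libraries and 0.005, -0.057 and -0.036 in the control libraries. By this measure the groups did not overlap, but the control libraries are themselves the reference, and no test was made. The median log2 fold change of the cytosolic enzymes minus that of the mitochondrial enzymes was -0.017, and it was -0.108 without atractylon replicate 1 and -0.093 by limma on log2(FPKM + 0.5). Taking the 15 enzyme pairs with a value in all libraries, the cytosolic enzyme had the higher FPKM in every library in 9 pairs. VARS with VARS2, among those 9, takes VARS on its primary gene alone, which held 6.91% to 10.7% of VARS counts. The mitochondrial enzyme was higher in every library in 4 pairs, which were CARS with CARS2, EPRS with EARS2, LARS with LARS2 and TARS with TARS2. The pairs NARS with NARS2 and EPRS with PARS2 were not in the same order in all libraries.

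**Figure D3:**
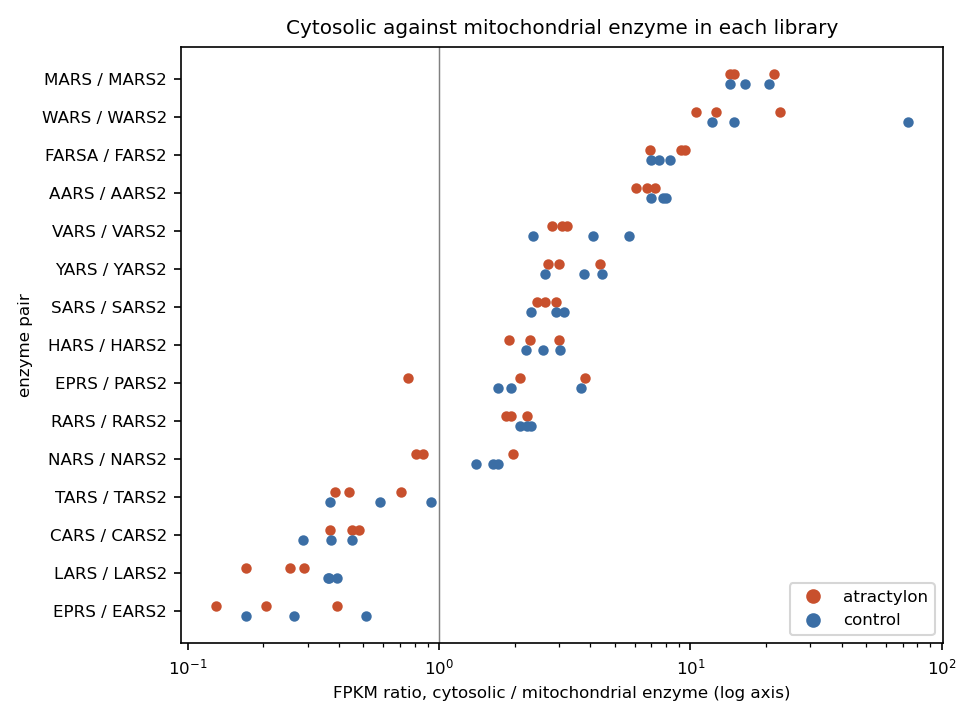
Each point is the FPKM ratio of a cytosolic enzyme to its mitochondrial counterpart in 1 library (x axis, log scale). The 15 pairs are ordered by the ratio of mean FPKM, with VARS on its primary-assembly gene alone. Points right of the line at 1 have the cytosolic enzyme higher; LARS with LARS2 runs from 0.170 to 0.392 and MARS with MARS2 from 14.3 to 21.6, and control replicate 2 gives the 73.7 of WARS with WARS2.

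Levels within a class also covered a wide range. Of the cytosolic enzymes 18 of 20, and of the mitochondrial enzymes 11 of 16, had a mean of at least 10 FPKM. After QARS the most abundant cytosolic members were FARSA at 168 and AARS at 135 FPKM, and MARS followed at 105 FPKM. The least abundant were FARSB at 1.46 and LARS at 7.64 FPKM. The other cytosolic enzymes lay between 10.8 FPKM for VARS, on the primary gene alone, and 93.6 FPKM for GARS.

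The libraries differed in how members of low and high GC content stood. GC content of the members' transcripts ran from 37.4% in EEF1E1 to 62.6% in VARS. The Spearman correlation over 38 members between GC content and the deviation of a library from the mean of the 6 was -0.46, 0.54 and 0.68 in the atractylon libraries and -0.65, 0.28 and -0.11 in the control libraries. Members share libraries and are not independent, so this is a description. The 13 members under 45% GC, which include LARS, FARSB, TARS and WARS2, had a median log2 deviation of 0.28 in control replicate 1 and of -0.23 in atractylon replicate 3. The 8 members of at least 55% GC stood at -0.06 and 0.11 in the same libraries. With the trend of each library with GC removed, the log2 fold change was -0.74 for LARS, -0.42 for FARSB, -0.34 for TARS and 0.82 for WARS2.

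**Figure D4:**
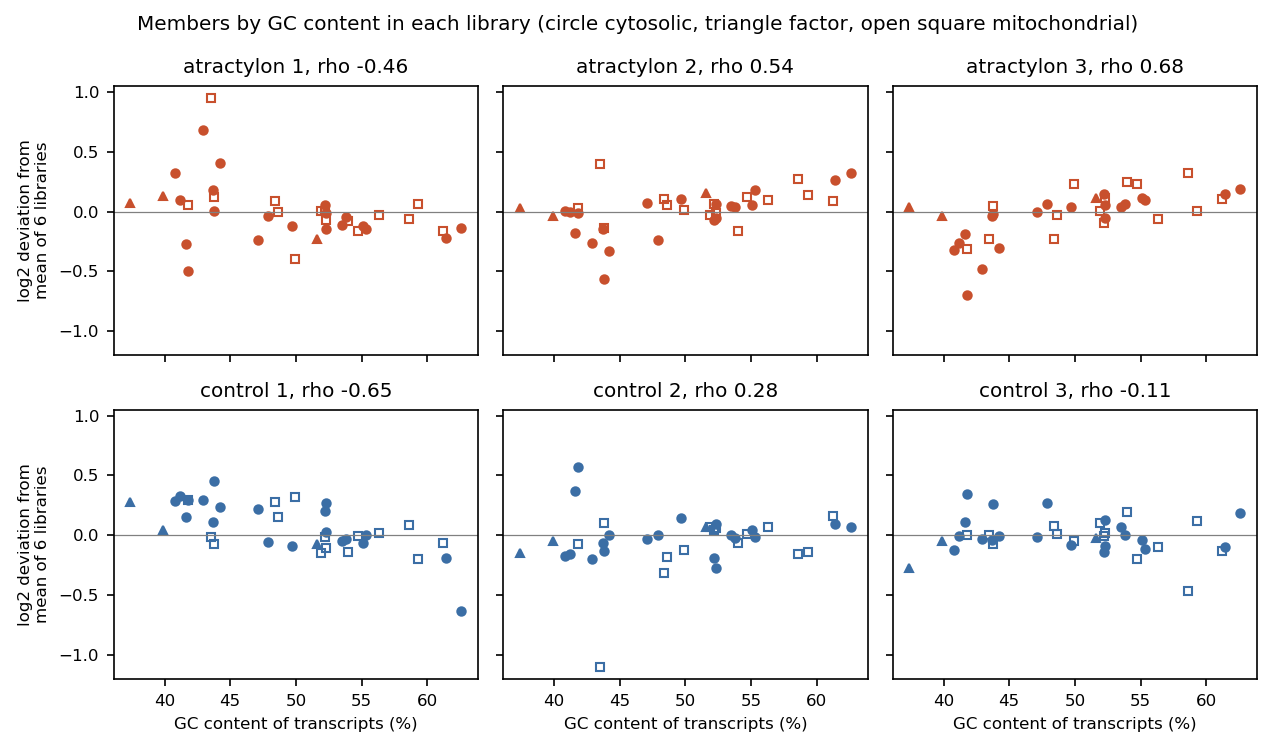
Each panel is 1 library and each point 1 of the 38 tested members, with GC content of its transcripts in percent on the x axis and log2 deviation of its CPM from the mean of the 6 libraries on the y axis. Points slope down in atractylon replicate 1 and control replicate 1 (rho of -0.46 and -0.65) and up in atractylon replicates 2 and 3 (0.54 and 0.68).

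Transcripts of all members were then read one by one. The table listed 427, of which 167 were tested and 0 were called. At an unadjusted p below 0.05 there were 11 (6.59%), beside 2.32% of all transcripts. The groups did not overlap in 21 (12.6%), 11 higher and 10 lower, beside 8.49% of all transcripts, 4.27% higher and 4.22% lower. The filter asked for 0.5 FPKM in 3 libraries, which is the size of 1 group. A transcript at 0 in a whole group could thus pass through the other group alone, and then could not overlap. An exact 0 of an estimated count can also be a failed estimate, so these counts are a description. Of the members' transcripts YARS-207, chosen after its values were seen, had the smallest p. This processed transcript of 1018 bases, from the tyrosyl enzyme gene, had 90.3, 115 and 92.4 counts with atractylon and 24.3, 37.8 and 38.7 in control libraries. The groups were well apart (log2 fold change 1.52 ± 0.28, SE, edgeR adjusted p = 1.0). The main coding transcript YARS-201 had 1288, 1272 and 1354 counts against 1026, 1337 and 1543, and overlapped in CPM (-0.04 ± 0.10). Several others had 0 counts in a whole group, such as KARS-204 at 20.1, 13.1 and 8.87 counts against 0 in each control library, and NARS2-204 at 25.5, 10.4 and 16.2 against 0 in each. The opposite case was KARS-206, at 0 in each atractylon library against 4.65, 2.18 and 1.89 counts. Their genes overlapped between groups, with a log2 fold change of -0.11 in KARS and 0.03 in NARS2.

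Genes that work beside the synthetases were described from named lists, and 0 of them passed the test. In each list the 2 tested genes with the smallest p are named. Of 12 factors beside the synthetases, 5 had a positive and 7 a negative log2 fold change (median -0.040), and 2 did not overlap between groups, both lower, beside 3.02% of all genes. SEPSECS, which converts phosphoseryl-tRNA to selenocysteinyl-tRNA, was at 8.07, 5.76 and 8.18 CPM against 13.2, 11.6 and 10.9 (log2 fold change -0.69 ± 0.22, SE). PTRH2, a mitochondrial peptidyl-tRNA hydrolase, was at 17.9, 17.0 and 17.4 CPM against 26.8, 23.8 and 19.0 (-0.41 ± 0.18). Neither passed the test.

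The elongation factor list, of proteins that bring charged tRNA to the ribosome, recharge those carriers or move the ribosome on, had 6 positive and 5 negative values among 11 genes (median 0.045). Its named genes were the mitochondrial translocation factor GFM1 at -0.27 ± 0.18 (log2 fold change, SE) and the exchange factor subunit EEF1D at 0.12 ± 0.13. The tRNA processing list had 13 positive and 15 negative among 28 tested of 29 (median -0.012). ADAT3, a subunit of the tRNA adenosine deaminase, was at 5.83, 8.496 and 9.54 CPM against 14.5, 18.5 and 10.4, with no overlap (-0.86 ± 0.27). TSEN54, a subunit of the tRNA splicing endonuclease chosen after its values were seen, was the other gene of this list without overlap, at 83.9, 98.2 and 93.2 CPM against 82.0, 82.1 and 79.9 (0.17 ± 0.11), beside 2.71% of all genes higher and 3.02% lower. RPP30, a subunit of ribonuclease P, was at -0.34 ± 0.20 and overlapped.

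The list of leucine sensing, the pathway to which LARS has been linked, had 8 positive and 8 negative values among 16 tested of 18 (median 0.004). LAMTOR3, of the complex that anchors the Rag GTPases at the lysosome, was at 0.19 ± 0.18 (log2 fold change, SE), and RRAGB, one of those GTPases, at 0.35 ± 0.33. The list of ATF4 and its targets outside the family had 8 positive and 12 negative among 20 (median -0.015). ATF3, a stress-induced transcription factor, was at 10.7, 9.10 and 8.33 CPM against 11.4, 10.7 and 11.9 (-0.27 ± 0.20). TRIB3, a pseudokinase induced with ATF4, was at 320, 404 and 350 CPM against 311, 339 and 325 (0.14 ± 0.11). PSAT1, of serine synthesis and chosen after its values were seen, was the 1 gene of this list without overlap, at 141, 138 and 129 CPM against 152, 143 and 149 (-0.12 ± 0.10). ATF4 targets thus had values on either side of 0, with the outermost at -0.27 and 0.17.

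Promoters were searched for the letters of the C/EBP-ATF response element, TGATGNAA, to which ATF4 dimers bind, on both strands of the 250 bases before the RefSeq start. A promoter was matched for 33 of 39 members. None was matched for DARS, LARS, VARS, YARS, AARS2 and VARS2, so LARS was not searched. The element was in 2 of 16 cytosolic, 0 of 3 factor and 1 of 14 mitochondrial promoters, beside 3.19% of 27305 promoters. The cytosolic matches were in AARS, 187 bases before the start, and in IARS, the isoleucyl enzyme, 13 bases before it, and the mitochondrial one was in YARS2, 197 bases before it. The AARS and IARS stretches hold the same 8 letters and are printed from RefSeq on GRCh38.p14, both minus strand, with the match in capitals (TTGCATCA, the reverse complement of TGATGCAA).
AARS, chr16:70289656-70289723: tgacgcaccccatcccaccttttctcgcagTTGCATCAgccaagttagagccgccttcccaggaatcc
IARS, chr9:92293698-92293757: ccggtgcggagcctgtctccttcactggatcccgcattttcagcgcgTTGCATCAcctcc
AARS and IARS had log2 fold changes of -0.02 ± 0.10 and 0.00 ± 0.12 (SE), and YARS2 of 0.01 ± 0.16. A match is a run of letters and was not tested as a binding site.

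The width of the intervals came from the spread between these libraries. For 34 of 38 members the 95% interval of the difference did not reach 2-fold on either side, and for 31 it did not reach 1.5-fold, with LARS, FARSB, VARS2 and WARS2 reaching past 2-fold. For the other members, a difference of more than 2-fold between these groups of libraries lay outside the interval. Replicates may be technical, so the intervals may leave out the spread between cultures and set no bound on the effect of treatment. The interval of VARS rests on 6.91% to 10.7% of its counts.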

How the data were processed

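The authors deposited 1 table of 180253 transcripts giving, per the file headers, FPKM and expected counts (estimated reads) for each library. Per the labels' protocols, RNA came from a low-input SMART-Seq v4 kit, whose amplification can favour transcripts by GC content. Build hg19, HISAT2 2.0.1, cutadapt 1.9.1, DESeq2 1.6.3 and bcl2fastq 2.17.1.14 are named in the submitters' processing notes. How reads were counted, on which annotation and with which strand setting, is not given in the sources used here. Reads shared by overlapping genes or copies were divided among them by a method that is likewise not given.

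Transcripts were matched by identifier to GENCODE 29 on GRCh38 (153245, or 85.0%); the rest held 8.70% to 9.07% of counts and were left out. Expected counts and FPKM were each summed over the transcripts of a gene, and the summed counts were rounded. Short transcripts with few counts weigh more in summed FPKM than in summed counts. Genes with FPKM of at least 0.5 in 3 or more of the 6 libraries were fitted with edgeR 4.0.16 (TMM, glmQLFit, glmQLFTest, R 4.3.3), group as the only term, 2-sided, adjusted over all 12302 genes; transcripts were fitted likewise. Standard errors came from the quasi-likelihood statistic. DESeq2 1.42.0 and limma 3.58.1 on log2(FPKM + 0.5), which understates changes of low genes, were alternatives. Groups came from sample titles. Replicates were not repeat copies of a library (chi-square per degree of freedom 3.43 to 19.61).

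Members and lists were chosen with earlier results of these data known. Values per library are given for LARS, LARS2, members without overlap, the 3 most abundant of each class and the 3 with the largest fold change each way; other values named were chosen after they were seen.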

Additional observations from a re-analysis of the deposited data

How the results depend on the processing

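The count of members called stayed at 0 under all 19 alternatives. Members at an unadjusted p below 0.05 numbered 1 to 5, LARS each time among them. The share of all genes at that level ran from 0.829% with DESeq2 to 10.7% without atractylon replicate 1, the alternative with 5 members. LARS was negative under all alternatives (-1.04 to -0.58), and 12 of 38 members kept their sign throughout. The median log2 fold change of the cytosolic enzymes, -0.007, was -0.078, -0.078 and -0.077 by limma with pseudocounts of 0.5, 0.1 and 1, and the difference of cytosolic minus mitochondrial medians, -0.017, was -0.093, -0.094 and -0.093. Leaving out 1 library gave -0.059 to 0.012 for the cytosolic median, -0.020 to 0.049 for the mitochondrial median and -0.108 to 0.0 for the difference. Without replicate 1 of both groups, an alternative chosen after seeing the data, the mitochondrial median was 0.051 and the difference -0.049. The cause of these shifts was not tested. Alternate copies added was also chosen after seeing the data.

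In the labels same-numbered replicates share only a number, and their deviations correlated at 0.15, 0.194 and 0.013. Over all genes tested, the Spearman correlation of deviation with GC was -0.60 with atractylon and -0.43 in control for replicate 1. It was 0.60 and 0.18 for replicate 2, and 0.40 and 0.02 for replicate 3. Whether same-numbered libraries were handled together was not tested. With a replicate block 0 members were called, the medians were -0.019 and 0.013, and their difference was -0.032. With that block 3 members were at an unadjusted p below 0.05, beside 2.41% of all genes. The GC alternatives were not run for transcripts. Low counts limit FARSB, WARS2 and VARS2.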
